A study of Rattus norvegicus with 15 samples.

Results

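Integrins and laminins were followed across rat cardiac stem cells and cardiomyocytes by RNA sequencing. The members were the genes whose symbol names an integrin alpha or beta chain, the integrin-like gene Itgbl1, or a laminin alpha, beta or gamma chain, with a count of at least 10 in at least 3 of 12 libraries. Of 26276 genes in the table, 38 carried such a symbol and all 38 met the count rule: 18 integrin alpha chains, 9 integrin beta genes including Itgbl1, 5 laminin alpha chains, 3 laminin beta chains and 3 laminin gamma chains. All 38 also passed the filter on low counts that left 17242 genes for testing.

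Every library came from Wistar rats, and each of the 4 groups had 3 libraries. The induced cardiomyocytes (iCM) are known from the study as beating colonies grown from cardiac stem cells. The adult cardiomyocytes (aCM) came from rats of 12 weeks and the neonatal cardiomyocytes (nCM) from rats at postnatal day 1 to 2. The cardiac stem cells (CSC) were 3 cultures of 1 clone, so their spread does not include differences between clones. A further 3 clones (cCSC1, cCSC2 and cCSC3) had 1 library each, and the first CSC library served as clone 4 beside them. Whether the iCM, aCM and nCM libraries came from separate animals or cultures is not in the labels. Their p-values therefore measure only the spread among the libraries, possibly a technical one.

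Integrins are receptors made of 1 alpha and 1 beta chain that span the cell membrane. Outside the cell they bind proteins of the extracellular matrix or of other cells, and inside they are tied to actin through talin, kindlin and integrin-linked kinase. Laminins are trimers of 1 alpha, 1 beta and 1 gamma chain and form the base of the basement membrane, the sheet of matrix that surrounds each cardiomyocyte. In striated muscle the alpha7 beta1 integrin and the dystroglycan complex bind laminins that hold the alpha2 chain. Fibronectin is bound by the alpha5 beta1 integrin, a receptor known for its part in embryonic development and in cells in culture.

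Levels are given as CPM, the counts relative to the library total, scaled by the trimmed mean of M values (TMM), and fold changes as log2 values from 1 edgeR quasi-likelihood fit over the 12 libraries, with the standard error (SE) and Benjamini-Hochberg adjustment over all 17242 genes at 0.05. CPM values are not divided by transcript length, so levels are compared between groups and not between genes. Total counts were, in M, 44.2 to 48.5 in iCM, 20.7 to 26.0 in aCM, 35.8 to 43.3 in nCM and 35.4 to 48.5 in CSC. Markers of more than 1 cell type were present in every group. The summed level of 6 of 6 cardiomyocyte markers was 4966 to 5676 CPM in iCM, 88226 to 117429 CPM in aCM, 1845 to 3838 CPM in nCM and 3.64 to 47.3 CPM in CSC. Fibroblast markers (6 of 6) summed to 14334 to 16172 CPM in iCM, 2400 to 4748 CPM in aCM, 12950 to 15677 CPM in nCM and 2975 to 3782 CPM in CSC. Endothelial markers (6 of 6) summed to 1777 to 2076 CPM in iCM, 1143 to 1805 CPM in aCM, 2576 to 3046 CPM in nCM and 57.4 to 75.5 CPM in CSC. None of these markers was at 0 in a whole group. In iCM the 5 skeletal muscle markers summed to 4.89 CPM in replicate 1, against 651 and 753 CPM in the other libraries. The nCM and iCM groups thus carried higher fibroblast sums and lower cardiomyocyte sums than aCM. Col3a1 and Col1a1 made up most of the fibroblast sums. Dcn, at 441 to 530 CPM in iCM and 517 to 1014 CPM in aCM, was not higher in iCM. Fewer cells of a type and less RNA per cell cannot be told apart here, and the part of these markers in the results was not tested.

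The 38 members spread over all 4 groups in where they were highest. By group mean, 10 members were highest in iCM, 10 in aCM, 10 in nCM and 8 in CSC. The highest group differed from the next by the test in 2 of 10 members in iCM, 6 of 10 in aCM, 4 of 10 in nCM and 7 of 8 in CSC. How all genes split over the groups in this way was not counted. Among those highest in CSC were Itga3, Itga5, Itga6, Itgb5, Itgb7, Lama3 and Lamb3. Lama2 had the widest span of group means, at 720-fold between aCM and CSC, and Itga9 the next, at 323-fold between the same groups. Itgae had the narrowest span, at 1.31-fold, and no neighbouring groups in its order differed by the test. The median coefficient of variation of the members was 10.4% in iCM, 17.9% in aCM, 17.0% in nCM and 25.4% in CSC.

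**Figure D1:**
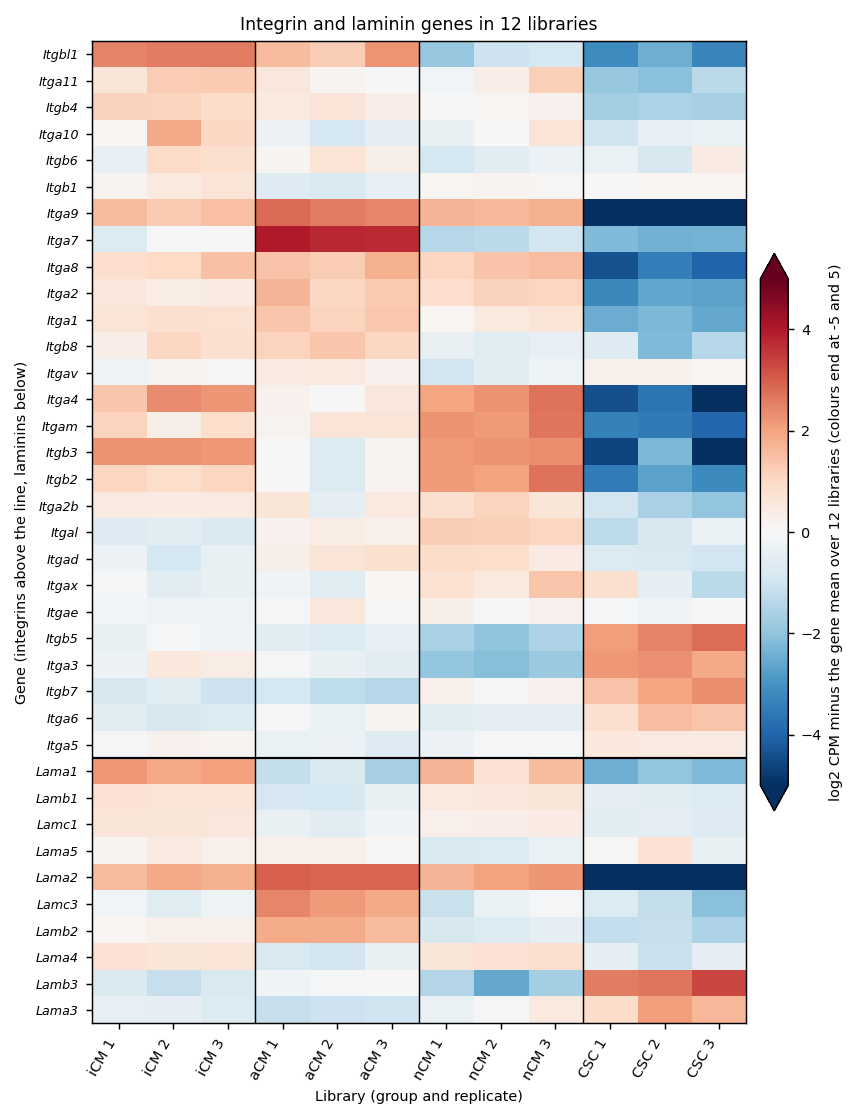
Level of 37 of the members in each of the 12 libraries, as log2 CPM minus the member's mean over the libraries, with integrins above the line and laminins below, each ordered by the group with the highest mean. Colours end at -5 and 5, and columns run iCM, aCM, nCM, CSC. Among the lowest values are those of Lama2, Itga9, Itga4 and Itgb3 in the CSC columns, and the highest values of Itga7 in the 3 aCM columns.

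The laminin receptors Itga7, Itga6 and Itga3 had 3 different orders across the groups. Itga7 (ENSRNOG00000007905), the muscle laminin receptor chain, had 32.5, 48.9 and 51.2 CPM in iCM, 821, 719.6 and 691 CPM in aCM, 19.7, 20.9 and 27.5 CPM in nCM and 11.3, 9.90 and 10.2 CPM in CSC. The 3 aCM libraries stood far above all others, and no groups overlapped. Relative to nCM, Itga7 rose in aCM by 5.04 ± 0.20 (SE; adjusted p = 4.81e-10) on the log2 scale. It was lower in iCM than in aCM, at -4.07 ± 0.19 (SE; adjusted p = 2.53e-09), and higher in iCM than in CSC, at 2.08 ± 0.18 (SE; adjusted p = 3.27e-07). Between iCM and nCM the log2 difference was 0.96 ± 0.17 (SE; adjusted p = 0.00131), and with iCM replicate 1 as the only iCM library it was 0.53 and no longer passed. The cardiomyocyte marker sums given above had the same order of groups, with aCM highest, then iCM, nCM and CSC. So had the sums of 5 smooth muscle and pericyte markers, at 982 to 1247 CPM in iCM, 1473 to 2006 CPM in aCM, 846 to 973 CPM in nCM and 248 to 278 CPM in CSC. None of these 5 had that order singly. Myh11 and Rgs5 were higher in every nCM library than in every iCM library. Cspg4 had 222 to 251 CPM in CSC, against 103 to 115 CPM in iCM. Pdgfrb was highest in iCM, at 398 to 723 CPM, against 189 to 225 CPM in aCM. The part of these markers was not tested.

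Itga6 (ENSRNOG00000001518), a laminin receptor chain that pairs with Itgb1 or with the hemidesmosome chain Itgb4, had the order CSC, aCM, nCM and iCM. Its values were 139, 119 and 128 CPM in iCM, 200.1, 166 and 228 CPM in aCM, 144, 149 and 149.9 CPM in nCM and 364, 594 and 543 CPM in CSC. Every CSC library lay above every library of the other groups, and the fall in iCM relative to CSC was -1.96 ± 0.17 (SE; adjusted p = 3.71e-07). Itga3 encodes a receptor for laminins with the alpha3 or alpha5 chain. It had 44.7, 79.2 and 70.6 CPM in iCM, 51.7, 42.8 and 38.3 CPM in aCM, 14.6, 12.8 and 15.4 CPM in nCM and 248, 267 and 203 CPM in CSC, and the nCM libraries were the lowest without overlap. Its log2 change was 2.18 ± 0.20 (SE; adjusted p = 5.67e-06) in iCM against nCM, 1.63 ± 0.20 (SE; adjusted p = 7.49e-06) in aCM against nCM and -4.07 ± 0.21 (SE; adjusted p = 1.62e-09) in nCM against CSC. Within iCM, replicate 1 had the lowest value.

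Itga5 (ENSRNOG00000036832), the fibronectin receptor chain, had a much narrower span of 1.87-fold, in the order CSC, iCM, nCM and aCM. The libraries had 236, 286 and 271 CPM in iCM, 195, 199 and 157 CPM in aCM, 199, 237 and 237 CPM in nCM and 358, 338 and 333 CPM in CSC. All 3 CSC libraries were above all others, while the ranges of iCM and nCM overlapped. The fall in aCM relative to CSC was -0.90 ± 0.13 (SE; adjusted p = 1.86e-05) and that in nCM relative to CSC was -0.61 ± 0.13 (SE; adjusted p = 0.000615). In aCM against nCM the value was -0.29 ± 0.12 (SE; adjusted p = 0.0603) and did not pass, although it passed with the other scalings tried. It also passed without aCM replicate 2 (-0.37) or nCM replicate 1 (-0.37), so the call depended on the setting.

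The ratio of Itga7 to Itga5 within each library put these differing orders into 1 value. Its log2 was -2.86, -2.55 and -2.40 in iCM, 2.08, 1.85 and 2.14 in aCM, -3.34, -3.51 and -3.11 in nCM and -4.99, -5.09 and -5.02 in CSC. The ratio was 40.5-fold higher in aCM than in nCM, 133-fold higher in aCM than in CSC and 5.39-fold higher in iCM than in CSC. In iCM it was 1.64 times that in nCM and 0.0404 times that in aCM. For Itga7 over Itga6 the ratio was 24.9-fold higher in aCM than in nCM and 15.8-fold higher in iCM than in CSC. The libraries did not overlap in any of these comparisons, and each had an exact 2-sided permutation p = 0.1, the smallest that 3 against 3 libraries allow. These pairs were chosen with the values known, and a ratio of raw levels is read here only between groups. The CSC libraries are of 1 clone, and in cCSC1, cCSC2 and cCSC3 Itga7 was higher and Itga5 lower than in that clone. The differences from CSC in Itga7 over Itga5 thus hold for that clone only. Without TMM scaling, Itga7 had 33.4, 23.2 and 27.1 CPM in cCSC1, cCSC2 and cCSC3, and Itga5 had 252, 239.7 and 199 CPM. These values were near those of the iCM and nCM libraries, which were scaled by TMM.

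**Figure D2:**
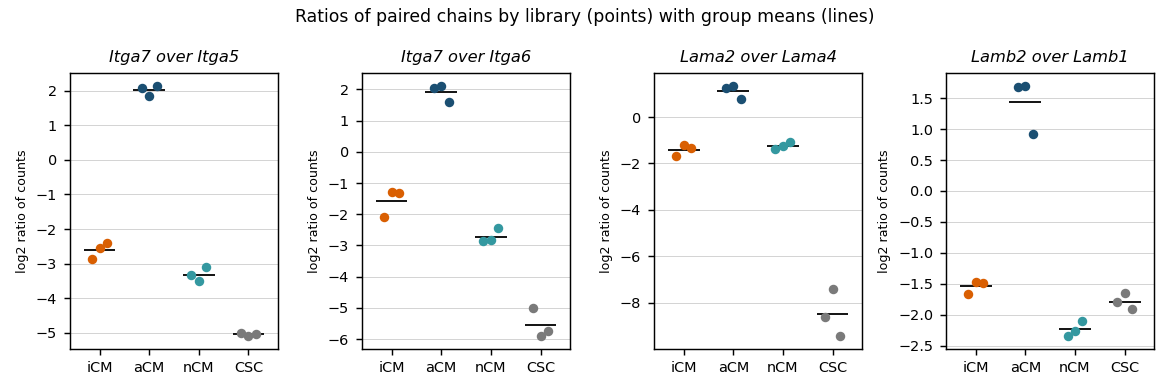
Log2 ratio of Itga7 to Itga5, Itga7 to Itga6, Lama2 to Lama4 and Lamb2 to Lamb1 in each library of iCM, aCM, nCM and CSC. Points are libraries and lines are means. In all 4 ratios the aCM libraries lie above the libraries of every other group.

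Among the beta chains, Itgb1 (ENSRNOG00000010966), the common partner of most alpha chains, spanned 2.09-fold by group mean. It had 1542, 1923 and 2115 CPM in iCM, 863, 790.2 and 1016 CPM in aCM, 1452, 1542 and 1417 CPM in nCM and 1324, 1465 and 1467 CPM in CSC, and the aCM libraries were the lowest without overlap. It fell in aCM against nCM by 0.72 ± 0.16 (SE; adjusted p = 0.0014) and was higher in iCM than in aCM, at 1.06 ± 0.16 (SE; adjusted p = 6.97e-05). Itgb5, which pairs with Itgav as a vitronectin receptor, had 126, 159 and 144 CPM in iCM, 114, 103 and 125 CPM in aCM, 53.0, 40.5 and 56.3 CPM in nCM and 692, 924 and 1129 CPM in CSC. The CSC libraries stood highest and the nCM libraries lowest. In nCM against CSC its log2 change was -4.20 ± 0.20 (SE; adjusted p = 8.05e-10), and in iCM against nCM it was 1.52 ± 0.18 (SE; adjusted p = 6.56e-05).

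Itgb3 pairs with Itgav, and in platelets with Itga2b. It had 34.8, 34.7 and 33.1 CPM in iCM, 7.56, 4.57 and 8.20 CPM in aCM, 31.9, 35.4 and 36.6 CPM in nCM and 0.311, 1.56 and 0.118 CPM in CSC, so that iCM and nCM overlapped, aCM lay below both and CSC was near 0. The fall in aCM against nCM had a log2 value of -2.36 ± 0.42 (SE; adjusted p = 0.000244). In iCM against CSC the log2 change was 5.60 ± 0.50 (SE; adjusted p = 4.42e-07), and 7.24 without CSC replicate 2, the highest of the 3 CSC libraries. The platelet partner chain Itga2b averaged 3.28 ± 0.0515 CPM in iCM, 2.93 ± 1.04 CPM in aCM, 4.38 ± 0.838 CPM in nCM and 0.901 ± 0.349 CPM in CSC (SD, n = 3 each). The 4 platelet markers summed to 8.00 to 8.59 CPM in iCM, 5.15 to 12.3 CPM in aCM, 20.4 to 28.4 CPM in nCM and 0.296 to 0.875 CPM in CSC.

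Itgb8, which pairs with Itgav in the activation of latent TGF-beta, averaged 23.8 ± 5.76 CPM in iCM, 32.6 ± 4.52 CPM in aCM, 10.3 ± 0.917 CPM in nCM and 5.85 ± 3.07 CPM in CSC (SD, n = 3 each). Both iCM, at 1.203 ± 0.29, and aCM, at 1.66 ± 0.30 (SE), were higher than nCM, with an adjusted p = 0.00817 for iCM and 0.000286 for aCM. With iCM replicate 1 alone the iCM value was 0.79 and did not pass. Itgb4, the Itga6 partner of hemidesmosomes, averaged 47.0 ± 3.89 CPM in iCM, 31.6 ± 3.63 CPM in aCM, 24.4 ± 1.82 CPM in nCM and 7.08 ± 0.396 CPM in CSC, with no overlap between groups. Its levels thus ran opposite to those of Itga6 between iCM and CSC, where Itgb4 had a log2 change of 2.73 ± 0.12 (SE; adjusted p = 4.78e-10). Itgb6, an epithelial partner of Itgav, stayed at 0.814 to 2.87 CPM in every library.

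Itgbl1 encodes a secreted protein with the repeats of an integrin beta stalk and is no receptor chain. It had 70.5, 78.0 and 76.7 CPM in iCM, 38.3, 29.5 and 58.6 CPM in aCM, 3.45, 6.27 and 6.86 CPM in nCM and 1.44, 2.37 and 1.301 CPM in CSC. No iCM or aCM library overlapped with nCM or CSC, and the log2 change of iCM against nCM, 3.77 ± 0.30 (SE; adjusted p = 1.94e-06), was the highest of any member in that comparison. In aCM against nCM it was 2.93 ± 0.30 (SE; adjusted p = 1.43e-06).

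**Figure D3:**
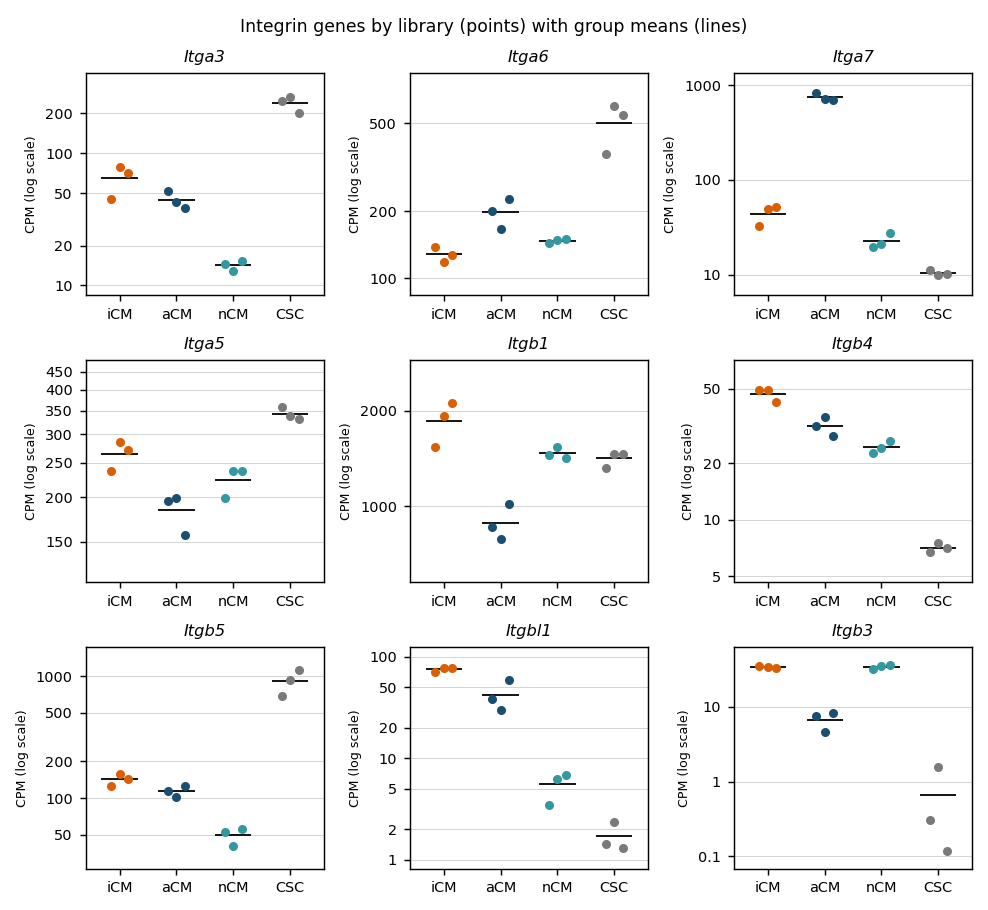
Level in CPM, on a log axis, of 9 integrin genes (Itga3, Itga6, Itga7, Itga5, Itgb1, Itgb4, Itgb5, Itgbl1 and Itgb3) in each library of iCM, aCM, nCM and CSC. Points are libraries and lines are means of 3. Itga7 stands at 691 to 821 CPM in aCM and Itgb3 at 4.57 to 8.20 CPM there.

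The 4 collagen receptor chains, Itga1, Itga2, Itga10 and Itga11, were lowest in CSC by group mean. For Itga10, CSC did not differ from aCM or nCM by the test. Itga1 averaged 113 ± 5.37 CPM in iCM, 168 ± 16.6 CPM in aCM, 92.6 ± 16.9 CPM in nCM and 12.8 ± 1.49 CPM in CSC (SD, n = 3 each). Itga2, its neighbour in the GRCr8 annotation, averaged 20.9 ± 1.52 CPM in iCM, 40.0 ± 9.77 CPM in aCM, 31.5 ± 3.48 CPM in nCM and 2.21 ± 0.491 CPM in CSC. Both were raised against CSC in all 3 other groups, with log2 changes of 3.14 and 3.24 in iCM. Itga11, found on fibroblasts, averaged 7.37 ± 1.82 CPM in iCM, 4.12 ± 0.889 CPM in aCM, 5.06 ± 2.47 CPM in nCM and 1.03 ± 0.293 CPM in CSC. Itga10, known from cartilage, had 2.02, 6.93 and 3.88 CPM in iCM, where replicate 1 was the lowest, and 0.933 to 2.91 CPM in the other 9 libraries. The low CSC values did not hold for all stem cell clones. Without TMM scaling, Itga1 had 176 CPM in cCSC2, against 27.9 in cCSC1 and 16.4 in cCSC3. Itga11 had 17.4 CPM in cCSC2, against 0.345 in cCSC1 and 0.637 in cCSC3.

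The chains Itga4 and Itga9 and the RGD receptor chain Itga8 were lowest in CSC, at 2.09 CPM or less in each CSC library. Itga4, a receptor for VCAM-1 and fibronectin, had 16.1, 31.6 and 28.5 CPM in iCM, 7.15, 6.27 and 8.92 CPM in aCM, 23.9, 29.1 and 40.0 CPM in nCM and 0.287, 0.491 and 0.118 CPM in CSC. Its log2 change was 6.33 ± 0.40 (SE; adjusted p = 1.24e-08) in iCM against CSC and -2.06 ± 0.30 (SE; adjusted p = 4.40e-05) in aCM against nCM, so that adult libraries held less than neonatal ones. With iCM replicate 1 alone the iCM value against CSC was 5.67. Itga9, a receptor for tenascin-C and VCAM-1, had 52.8, 44.5 and 49.998 CPM in iCM, 128, 107 and 96.9 CPM in aCM, 57.7, 56.0 and 60.5 CPM in nCM and 0.311, 0.512 and 0.207 CPM in CSC. It was 323-fold higher in aCM than in CSC by group means, and 0.93 ± 0.15 (SE; adjusted p = 0.000106) higher in aCM than in nCM on the log2 scale. Itga8, a nephronectin receptor, averaged 48.96 ± 11.9 CPM in iCM, 63.2 ± 11.4 CPM in aCM, 57.2 ± 9.53 CPM in nCM and 1.53 ± 0.509 CPM in CSC (SD, n = 3 each). None of the differences among iCM, aCM and nCM passed for Itga8, the widest being -0.37 ± 0.21 in iCM against aCM, which was -0.57 and passed without iCM replicate 3. Itgav, the vitronectin receptor alpha chain, spanned 1.90-fold, with 126 ± 17.2 CPM in iCM, 168 ± 15.8 CPM in aCM, 88.5 ± 22.5 CPM in nCM and 148 ± 7.91 CPM in CSC.

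The leukocyte integrins Itgad, Itgae, Itgal, Itgam, Itgax, Itgb2 and Itgb7 had their highest group mean in nCM in 6 of 7 cases, the exception being Itgb7, which was highest in CSC. For Itgad and Itgae, nCM did not differ from aCM, the next group, by the test. Itgb2, the partner of Itgal, Itgam, Itgax and Itgad on white blood cells, had 8.55, 7.44 and 8.51 CPM in iCM, 4.14, 2.51 and 4.43 CPM in aCM, 17.98, 16.6 and 26.4 CPM in nCM and 0.359, 0.64 and 0.444 CPM in CSC. It fell in aCM against nCM, at -2.47 ± 0.25 (SE; adjusted p = 1.54e-06), and in iCM against nCM, at -1.32 ± 0.23 (SE; adjusted p = 0.00108), although the iCM value was -1.24 and did not pass with iCM replicate 1 alone. Itgam, of monocytes and macrophages, averaged 4.76 ± 1.33 CPM in iCM, 3.91 ± 0.694 CPM in aCM, 14.1 ± 2.99 CPM in nCM and 0.225 ± 0.0437 CPM in CSC (SD, n = 3 each). Itgal, the alpha chain of the lymphocyte receptor for ICAM-1, averaged 11.6 ± 0.738 CPM in iCM, 22.0 ± 1.40 CPM in aCM, 40.6 ± 2.02 CPM in nCM and 10.6 ± 3.603 CPM in CSC. The 6 leukocyte markers summed to 82.5 to 94.8 CPM in iCM, 88.6 to 132 CPM in aCM, 238 to 358 CPM in nCM and 4.20 to 6.61 CPM in CSC, and their part in these differences was not tested. In CSC, Itgb7 had 8.64, 12.8 and 16.1 CPM and Itgal had 7.23, 10.3 and 14.4 CPM while Itgb2 stayed at 0.359 to 0.640 CPM. Itgam, Itgax and Itgad are neighbours in the GRCr8 annotation and related to each other, so the placing of any reads they share is uncertain.

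**Figure D4:**
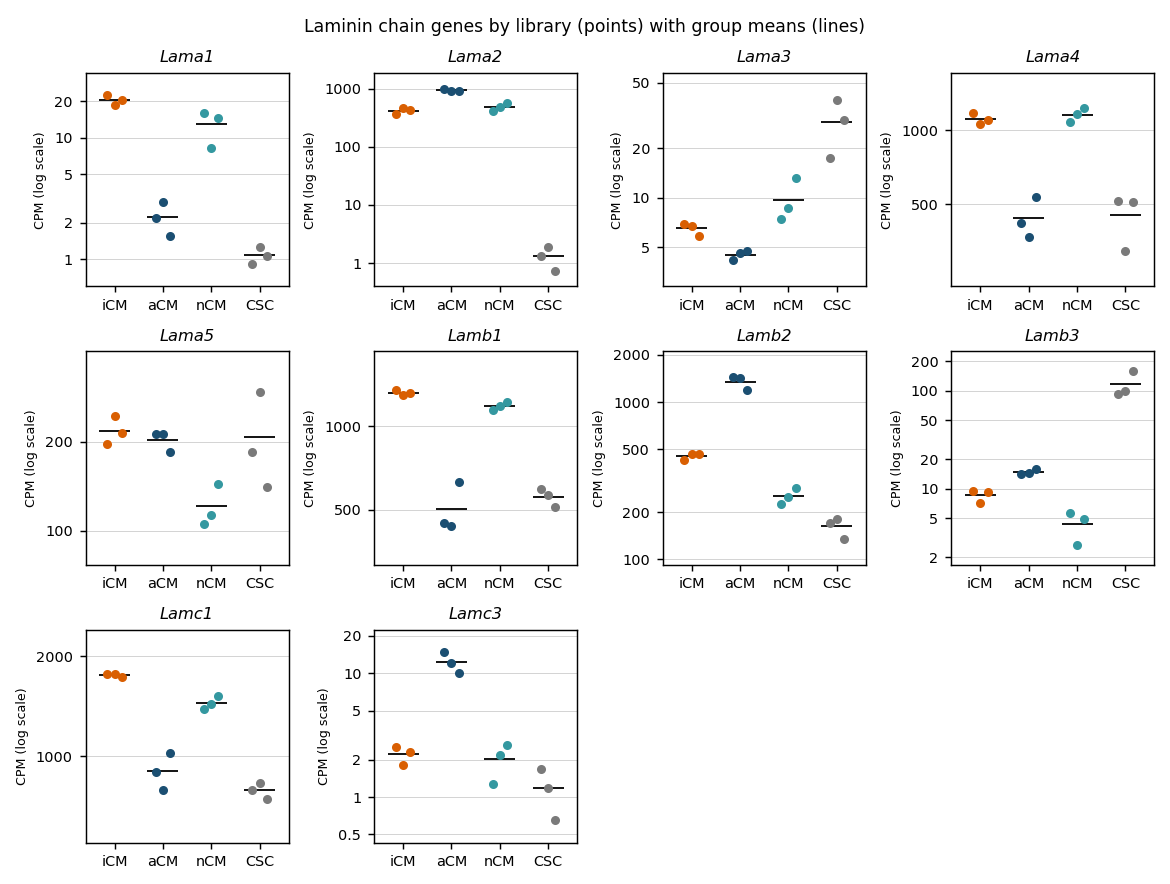
Level in CPM, on a log axis, of 10 laminin chains in each library of iCM, aCM, nCM and CSC. Points are libraries and lines are means of 3. Lama2 lies at 0.739 to 1.90 CPM in CSC and at 368 CPM or more in the other 9 libraries, and Lamb2 is highest in aCM.

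Of the laminin alpha chains, Lama2 had the widest span of group means, while its iCM and nCM libraries overlapped. Lama2 (ENSRNOG00000011134), the alpha chain of muscle laminin whose loss causes congenital muscular dystrophy, had 368, 463 and 429 CPM in iCM, 991, 931 and 924 CPM in aCM, 408, 494 and 574 CPM in nCM and 1.32, 1.90 and 0.739 CPM in CSC. The aCM libraries were the highest and the CSC libraries near 0. Lama2 rose by 8.28 ± 0.29 (SE; adjusted p = 6.22e-11) in iCM against CSC and by 0.95 ± 0.21 (SE; adjusted p = 0.00132) in aCM against nCM, both log2. Between iCM and nCM it was -0.23 ± 0.21 (SE) and did not pass.

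Lama4, the alpha chain of laminins of vessels and mesenchyme, had 1173, 1059.5 and 1096 CPM in iCM, 421, 367 and 537 CPM in aCM, 1074, 1165 and 1223 CPM in nCM and 517, 323 and 510.4 CPM in CSC. The iCM and nCM libraries lay between 1060 and 1223 CPM, above every aCM and CSC library. It was lower in aCM than in nCM, at -1.39 ± 0.19 (SE; adjusted p = 2.94e-05), and higher in iCM than in CSC, at 1.302 ± 0.19 (SE; adjusted p = 4.76e-05). Lama2 over Lama4 had a mean log2 ratio of -1.41 in iCM, 1.12 in aCM, -1.24 in nCM and -8.49 in CSC, and was 5.15-fold higher in aCM than in nCM without overlap (exact permutation p = 0.1, the smallest possible). Between iCM and nCM the libraries overlapped in this ratio.

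Lama1, the alpha chain of early embryonic basement membranes, had 22.4, 18.7 and 20.5 CPM in iCM, 2.17, 2.95 and 1.55 CPM in aCM, 16.2, 8.20 and 14.5 CPM in nCM and 0.909, 1.26 and 1.06 CPM in CSC. In iCM against CSC it rose by 4.24 ± 0.29 (SE; adjusted p = 2.58e-08). The adult libraries held little of it, and in aCM against nCM the log2 change was -2.53 ± 0.27 (SE; adjusted p = 2.93e-06). In iCM against nCM it was 0.66 ± 0.24 (SE; adjusted p = 0.0521) and did not pass, although it passed without nCM replicate 1 (0.85), without aCM replicate 2 (0.66) or 3 (0.66), and without any one of the CSC libraries (0.66, 0.66 and 0.67). It also passed in DESeq2 (0.64), with no filter on low counts (0.68) and in a fit of the 2 groups alone (0.64).

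Lama5, a widely expressed basement membrane chain, had 196, 244 and 214 CPM in iCM, 212, 213 and 185 CPM in aCM, 105, 113 and 144 CPM in nCM and 185, 295 and 140.2 CPM in CSC. The nCM libraries lay below all iCM and aCM libraries and overlapped with CSC, with a log2 difference of 0.85 ± 0.22 (SE; adjusted p = 0.0109) in iCM against nCM and 0.75 ± 0.22 (SE; adjusted p = 0.0091) in aCM against nCM. The aCM value was 0.40 and did not pass when libraries were scaled by total counts, and the iCM value was 0.71 and did not pass with iCM replicate 1 alone. Lama3 encodes an alpha chain of epithelial laminins and assembles with Lamb3. It had 6.96, 6.76 and 5.83 CPM in iCM, 4.19, 4.61 and 4.71 CPM in aCM, 7.41, 8.68 and 13.1 CPM in nCM and 17.5, 39.4 and 29.6 CPM in CSC, with all CSC libraries above the rest, and it fell by 2.15 ± 0.27 (SE; adjusted p = 1.07e-05) in iCM against CSC.

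Lamb3, the beta chain that assembles with Lama3, was also highest in CSC by group mean. It had 9.59, 7.18 and 9.32 CPM in iCM, 14.1, 14.6 and 15.96 CPM in aCM, 5.69, 2.70 and 4.92 CPM in nCM and 92.7, 100.4 and 158 CPM in CSC, and its log2 change was -3.75 ± 0.26 (SE; adjusted p = 3.97e-08) in iCM against CSC and -4.71 ± 0.28 (SE; adjusted p = 5.62e-09) in nCM against CSC. The 4 epithelial markers summed to 2.12 to 2.62 CPM in iCM, 3.88 to 4.49 CPM in aCM, 3.07 to 4.94 CPM in nCM and 1.72 to 2.496 CPM in CSC, so the CSC libraries were not the highest in them.

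The beta chains Lamb2 and Lamb1 differed in opposite directions between aCM and nCM. Lamb2, the beta chain of neuromuscular and kidney basement membranes, had 428, 471 and 468 CPM in iCM, 1433, 1418 and 1186 CPM in aCM, 225, 248 and 283 CPM in nCM and 171, 179.5 and 136 CPM in CSC. Lamb1, the beta chain of most embryonic laminins, had 1356, 1300.1 and 1319 CPM in iCM, 448, 436 and 629 CPM in aCM, 1148, 1185 and 1223 CPM in nCM and 593, 566 and 512 CPM in CSC. Lamb2 was higher in aCM than in nCM, at 2.42 ± 0.15 (SE; adjusted p = 1.47e-08), while Lamb1 was lower, at -1.23 ± 0.15 (SE; adjusted p = 1.10e-05). Their ratio, Lamb2 over Lamb1, had a mean log2 of -1.54 in iCM, 1.43 in aCM, -2.24 in nCM and -1.79 in CSC. It was 12.7-fold higher in aCM than in nCM and 1.62-fold higher in iCM than in nCM, without overlap, each with an exact permutation p = 0.1, the smallest possible. The ratio overlapped between iCM and CSC (exact permutation p = 0.2).

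Lamc1, the gamma chain shared by most laminins, had 1764, 1775 and 1733 CPM in iCM, 895, 790.1 and 1020.1 CPM in aCM, 1389, 1441 and 1523 CPM in nCM and 789, 829 and 743 CPM in CSC. The iCM libraries were the highest, and the log2 change was 1.16 ± 0.14 (SE; adjusted p = 7.11e-06) in iCM against CSC and -0.69 ± 0.14 (SE; adjusted p = 0.00068) in aCM against nCM. Lamc3, a gamma chain of restricted expression, had 2.53, 1.83 and 2.31 CPM in iCM, 14.8, 12.0 and 10.1 CPM in aCM, 1.28, 2.196 and 2.62 CPM in nCM and 1.70, 1.19 and 0.651 CPM in CSC. It was higher in aCM than in nCM, at 2.60 ± 0.32 (SE; adjusted p = 1.02e-05), and the aCM libraries did not overlap with any other.

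Lama4, Lamb1 and Lamc1 moved the same way in 4 of the 6 comparisons. The 3 chains were higher in iCM than in CSC, with log2 changes of 1.302, 1.25 and 1.16, and higher in iCM than in aCM, at 1.33, 1.39 and 0.96. They were higher in nCM than in CSC, at 1.36, 1.09 and 0.88, and lower in aCM than in nCM, at -1.39, -1.23 and -0.69. The differences from CSC are those from 1 clone. Without TMM scaling, Lama4, Lamb1 and Lamc1 had 1013, 1205 and 1313 CPM in cCSC2. They had 598, 534 and 519 CPM in cCSC1 and 511, 514 and 407 CPM in cCSC3. In iCM against nCM and in aCM against CSC none of the 3 passed, although in aCM against CSC Lamb1 (-0.14) passed without aCM replicate 3 (-0.36) and Lamc1 (0.20) passed with a minimum count of 50 (0.33). The fibroblast marker sums, high in iCM and nCM and low in aCM and CSC, had the same split of groups, and their part was not tested. Singly, Col3a1 and Tcf21 had this split without overlap, while Dcn, Lum, Pdgfra and Col1a1 did not. The endothelial sums overlapped between iCM, at 1777 to 2076 CPM, and aCM, at 1143 to 1805 CPM. Of the endothelial markers singly, Tie1, Pecam1, Cdh5 and Tek had the split without overlap, while Emcn and Kdr did not. The part of the endothelial markers was not tested either.

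The promoters of these 3 chains, and that of Lama3, which had the reverse difference between iCM and CSC, are shown for the motif letters they hold. Each covers 250 bases before and 50 after the gene start in the GRCr8 build, from RefSeq, whose table held a promoter for 29 of 38 members; those with no entry include Itga6, Itga7, Itgad, Itgal, Itgb2, Itgb3, Itgb4 and Lamb2. The stretches are chr20:43946648-43946947 on the plus strand for Lama4, chr6:53562846-53563145 on the plus strand for Lamb1, chr13:68051937-68052236 on the minus strand for Lamc1 and chr18:3952517-3952816 on the plus strand for Lama3. Capitals mark matches on either strand to the GC box GGGCGG, the CCAAT box CCAAT, the TATA box TATAAA, the AP-1 site TGANTCA, the TEAD site GGAATG or the E box CACGTG.
Lama4: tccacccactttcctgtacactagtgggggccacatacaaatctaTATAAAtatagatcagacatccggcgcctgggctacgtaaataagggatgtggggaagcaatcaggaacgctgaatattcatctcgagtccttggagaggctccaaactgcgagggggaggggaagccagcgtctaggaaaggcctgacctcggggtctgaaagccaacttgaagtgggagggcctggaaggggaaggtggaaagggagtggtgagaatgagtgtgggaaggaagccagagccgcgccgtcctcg
Lamb1: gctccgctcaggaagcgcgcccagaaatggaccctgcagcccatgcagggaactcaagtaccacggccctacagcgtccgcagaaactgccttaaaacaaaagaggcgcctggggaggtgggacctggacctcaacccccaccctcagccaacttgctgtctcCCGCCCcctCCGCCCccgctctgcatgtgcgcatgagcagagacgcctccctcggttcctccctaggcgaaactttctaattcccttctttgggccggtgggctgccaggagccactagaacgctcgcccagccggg
Lamc1: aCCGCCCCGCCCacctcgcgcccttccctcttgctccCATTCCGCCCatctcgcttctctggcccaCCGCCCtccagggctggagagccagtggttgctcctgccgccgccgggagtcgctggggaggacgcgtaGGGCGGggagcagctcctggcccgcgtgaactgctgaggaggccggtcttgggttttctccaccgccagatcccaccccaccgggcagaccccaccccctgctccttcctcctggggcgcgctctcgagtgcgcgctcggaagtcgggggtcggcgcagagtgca
Lama3: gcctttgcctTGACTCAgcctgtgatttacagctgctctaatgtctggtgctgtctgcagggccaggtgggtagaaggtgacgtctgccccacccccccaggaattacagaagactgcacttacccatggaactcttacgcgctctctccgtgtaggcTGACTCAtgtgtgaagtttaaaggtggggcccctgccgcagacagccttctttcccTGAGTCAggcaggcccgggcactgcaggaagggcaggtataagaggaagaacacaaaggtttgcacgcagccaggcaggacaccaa
The Lama4 stretch held 1 match to the TATA box letters, far before the gene start, and the Lamb1 stretch 2 GC box matches. The Lamc1 stretch held 5 GC box matches and 1 TEAD match, some of which overlap. The Lama3 stretch held 3 AP-1 matches. Among the 29 members with a promoter, 55.2% held a GC box, against 33.1% of 33469 promoters in all, 20.7% a CCAAT box, against 37.5%, and 6.90% a TATA box, against 14.2%. An AP-1 match was in 6.90% of them, against 7.33%, a TEAD match in 24.1%, against 14.2%, and an E box in 0 of 29, against 6.42%. These are letters in a window and not sites shown to be bound, and the 33469 promoters were not limited to protein-coding genes.

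In iCM against CSC, 23 of 38 members rose and 8 fell, or 81.6%, where 66% of all genes tested were called (34.8% higher and 31.2% lower). The median log2 change of the members was 1.28, against 0.08 over all genes. The 5 largest rises were Lama2 (8.28), Itga9 (7.10), Itga4 (6.33), Itgb3 (5.60) and Itgbl1 (5.44), and the 5 largest falls were Lamb3 (-3.75), Itgb7 (-2.74), Itgb5 (-2.68), Lama3 (-2.15) and Itga6 (-1.96). By role, 4 of 4 collagen receptor chains rose and 2 of 3 laminin receptor chains fell. The call of Itgb1 (0.39) was lost without CSC replicate 1 (0.34), CSC replicate 2 (0.41), CSC replicate 3 (0.41), aCM replicate 1 (0.40), aCM replicate 2 (0.40), iCM replicate 2 (0.36), iCM replicate 3 (0.29), nCM replicate 1 (0.39) or nCM replicate 2 (0.40). That of Itga5 (-0.37) was lost without iCM replicate 1 (-0.30) and with total counts (-0.28). That of Lamc3 (0.89) was lost without CSC replicate 2 (0.89), CSC replicate 3 (0.62), iCM replicate 1 (0.79) or iCM replicate 3 (0.86). With iCM replicate 1 alone the value of Itga10 was 0.65, against 1.73 with all 3.

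In iCM against nCM, 11 of 38 members rose and 7 fell, or 47.4%, where 31.4% of all genes were called (18.3% higher and 13.1% lower). The median of the members was 0.14, against -0.02 over all genes. The largest rises were Itgbl1 (3.77), Itga3 (2.18), Itgb5 (1.52), Itgb8 (1.203) and Itgb6 (1.10), and the largest falls Itgal (-1.81), Itgam (-1.57), Itgb2 (-1.32), Itgad (-1.26) and Itgax (-1.23). Of the 7 leukocyte integrins 6 fell. Among the 8 laminin alpha and beta chains 3 rose, Lama5, Lamb2 and Lamb3, and none fell. The calls of 5 members were lost when single libraries were left out. For Itga2 (-0.59) this was without iCM replicate 2 (-0.54), iCM replicate 3 (-0.57), nCM replicate 2 (-0.52) or nCM replicate 3 (-0.56). For Itgav (0.51) it was without iCM replicate 2 (0.44), iCM replicate 3 (0.48), nCM replicate 1 (0.35) or nCM replicate 2 (0.51), and for Itgb6 without iCM replicate 2 (0.86), iCM replicate 3 (0.97), nCM replicate 1 (0.96), nCM replicate 2 (1.11) or nCM replicate 3 (1.26). For Itgax it was without aCM replicate 1 (-1.23), iCM replicate 1 (-1.37), iCM replicate 2 (-1.13), iCM replicate 3 (-1.19), nCM replicate 1 (-1.31) or nCM replicate 3 (-0.92), and for Itgb7 (-0.92) without iCM replicate 3 (-0.81). With iCM replicate 1 as the only iCM library, 4 members were higher and 2 lower, and Itgb6 had 0.15. The 6 that passed there were Itgbl1, Itga3, Itgb5 and Itgb4, which were higher, and Itgal and Itgam, which were lower.

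In iCM against aCM, 14 of 38 members rose and 13 fell, or 71.1%, where 63.1% of all genes were called (33% higher and 30.1% lower). The median of the members was 0.17, against 0.00 over all genes. With total counts as the only scaling, 17 rose and 9 fell, the median of all genes was 0.28, and Itga1 (-0.29) and Itga6 (-0.35) did not pass. The largest rises were Lama1 (3.19), Itgb3 (2.34), Itga4 (1.77), Itga10 (1.70) and Lamb1 (1.39), and the largest falls included Itga7 (-4.07), Lamc3 (-2.47), Lamb2 (-1.56) and Lama2 (-1.18). With iCM replicate 1 alone 9 members rose, and Itga10 had 0.64 and Itga4 1.13. Calls of 5 members were lost when single libraries were left out. These were Itga11 (0.84) without aCM replicate 2 (0.81), aCM replicate 3 (0.76), iCM replicate 2 (0.76) or iCM replicate 3 (0.72), and Itga3 (0.55) without aCM replicate 2 (0.55), aCM replicate 3 (0.49), iCM replicate 2 (0.39) or iCM replicate 3 (0.49). Itgav (-0.41) was lost without CSC replicate 1 (-0.41), CSC replicate 2 (-0.41), CSC replicate 3 (-0.40), aCM replicate 1 (-0.36), aCM replicate 2 (-0.34), iCM replicate 1 (-0.30), iCM replicate 3 (-0.44) or nCM replicate 2 (-0.38). Itgbl1 (0.83) was lost without aCM replicate 1 (0.79) or aCM replicate 2 (0.65), and Lamb3 (-0.78) without aCM replicate 3 (-0.69) or iCM replicate 2 (-0.65).

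In aCM against nCM, 17 of 38 members rose and 13 fell, or 78.9%, where 62.7% of all genes were called (30.8% higher and 31.9% lower). The median of the members was 0.06, against -0.01 over all genes. All 5 laminin alpha chains and all 3 laminin beta chains passed, and so did all 9 integrin beta genes. With total counts as the only scaling 13 members rose and 16 fell, the median of all genes was -0.35, and Lama5 (0.40), Itgb4 (0.03) and Itgb6 (0.58) did not pass. The largest rises were Itga7 (5.04), Itgbl1 (2.93), Lamc3 (2.60), Lamb2 (2.42) and Lamb3 (1.74), and the largest falls Lama1 (-2.53), Itgb2 (-2.47), Itgb3 (-2.36), Itga4 (-2.06) and Itgam (-1.85). The call of Itga6 (0.42) was lost without aCM replicate 1 (0.40), aCM replicate 3 (0.28), iCM replicate 1 (0.42), iCM replicate 2 (0.42), iCM replicate 3 (0.42), nCM replicate 1 (0.40), nCM replicate 2 (0.41) or nCM replicate 3 (0.43). That of Itgb6 (0.94) was lost without CSC replicate 1 (0.93), aCM replicate 1 (1.02), aCM replicate 2 (0.75), aCM replicate 3 (0.95), iCM replicate 2 (0.93), iCM replicate 3 (0.93), nCM replicate 1 (0.79), nCM replicate 2 (0.92) or nCM replicate 3 (1.09). Itgax (-1.15) was lost without aCM replicate 1 (-1.19), aCM replicate 2 (-1.002) or nCM replicate 3 (-0.85), and Itgb4 (0.38) without aCM replicate 2 (0.27).

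**Figure D5:**
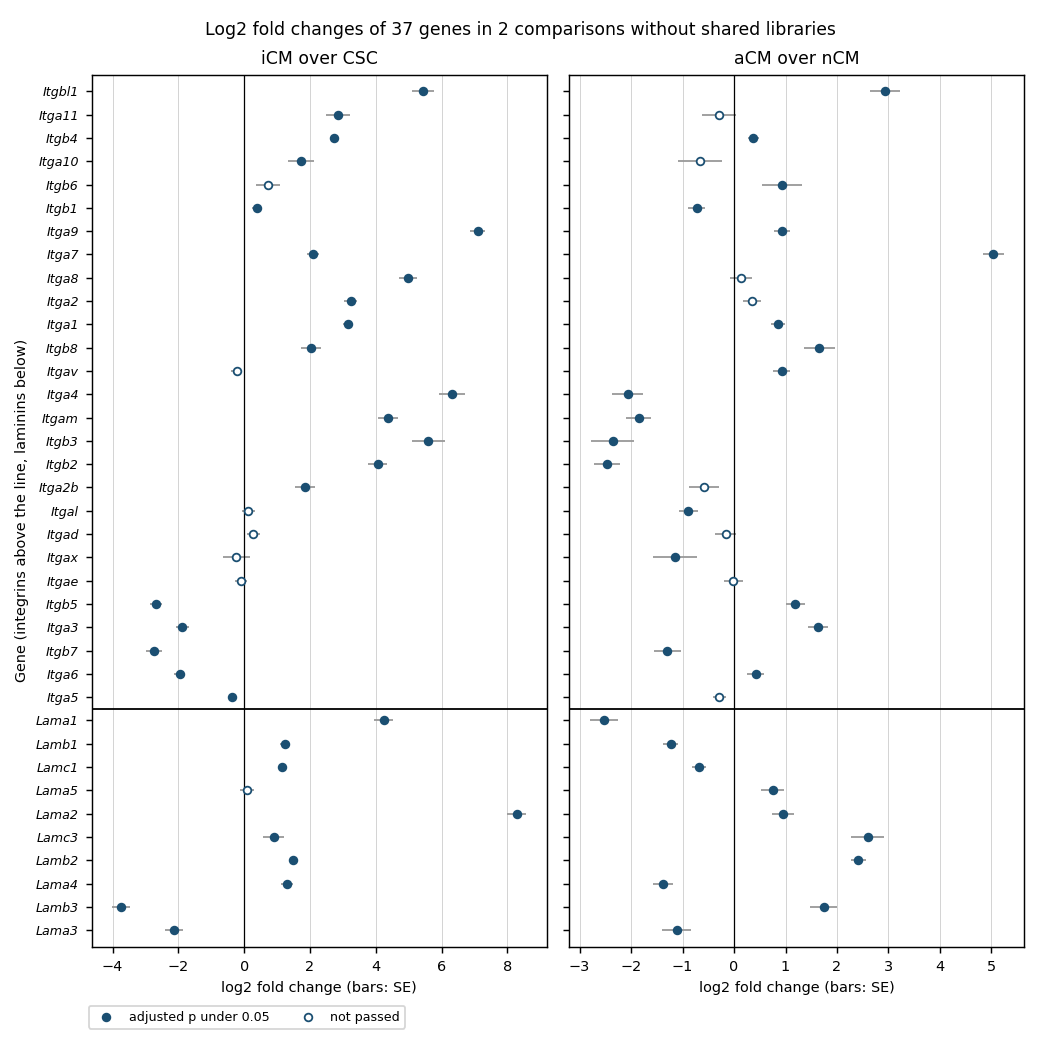
Log2 fold change and SE of 37 of the members in iCM against CSC and in aCM against nCM, which share no library, from the edgeR fit. Bars are SE. Filled points passed an adjusted p of 0.05 over all genes tested and open points did not. Itga7 has the largest value of aCM against nCM, at 5.04, and Lama2 the largest of iCM against CSC, at 8.28.

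In nCM against CSC 23 members rose and 10 fell, or 86.8%, where 72.1% of all genes were called (36.7% higher and 35.4% lower), and the median was 1.04, against 0.09 over all genes. In aCM against CSC 20 rose and 8 fell, or 73.7%, where 78% were called (43.2% higher and 34.8% lower), and the median was 1.05, against 0.29, so the share of members called there was below that of all genes. By role, 16 of 27 integrins rose in aCM against CSC, but 2 of 5 laminin alpha chains and 1 of 3 laminin beta chains, and the median of the alpha chains was -0.02. The largest rises in nCM were Lama2 (8.51), Itga9 (7.34), Itga4 (6.61), Itgam (5.94) and Itgb3 (5.61), and the largest falls included Lamb3 (-4.71), Itgb5 (-4.20), Itga3 (-4.07) and Itgb7 (-1.82). In aCM the largest rises were Lama2 (9.46), Itga9 (8.27), Itga7 (6.15), Itga8 (5.35) and Itgbl1 (4.61), and the largest falls Itgb7 (-3.11), Itgb5 (-3.01), Lamb3 (-2.97), Lama3 (-2.68) and Itga3 (-2.43). Without CSC replicate 2 the value of Itgb3 was 7.25 in nCM and 4.89 in aCM, against 5.61 and 3.25 with all 3. In nCM the call of Itgax (0.998) was lost without CSC replicate 2 (0.83), CSC replicate 3 (0.62), aCM replicate 1 (1.01), iCM replicate 2 (0.99), iCM replicate 3 (0.99), nCM replicate 1 (1.08) or nCM replicate 3 (0.69), its value was 1.74 without CSC replicate 1, and the call of Itgb8 (0.83) was lost without CSC replicate 2 (0.50), CSC replicate 3 (0.76), nCM replicate 1 (0.78) or nCM replicate 3 (0.79). The comparisons share libraries, since each group enters 3 of them.

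Other genes of the same pathways were counted from 3 lists, written with earlier results of these data known. The first held 33 tested genes of the adhesion plaque, the proteins that tie integrins to actin. In iCM 17 rose and 11 fell against CSC, 13 rose and 5 fell against nCM, and 16 rose and 11 fell against aCM, while 13 rose and 14 fell in aCM against nCM. Of all genes tested 66.0% were called in iCM against CSC, 31.4% in iCM against nCM, 63.1% in iCM against aCM and 62.7% in aCM against nCM. The list's median log2 change was 0.36 in iCM against CSC, with 0.08 over all genes, and 0.16 in aCM against nCM, with -0.01 over all genes. Nrap, a protein of the cardiomyocyte cell junction and growing sarcomere, averaged 58.2 ± 3.39 CPM in iCM, 1044 ± 147 CPM in aCM, 28.0 ± 6.49 CPM in nCM and 0.445 ± 0.175 CPM in CSC (SD, n = 3 each). Csrp3, the muscle LIM protein, averaged 83.9 ± 1.69 CPM in iCM, 312 ± 14.98 CPM in aCM, 33.1 ± 5.05 CPM in nCM and 0.157 ± 0.0181 CPM in CSC. Itgb1bp2, the muscle-specific beta1 binding protein melusin, had a log2 change of -2.38 ± 0.19 in iCM against aCM (SE). Among those lower against CSC, Ptk2b, a kinase related to focal adhesion kinase, had -1.96 ± 0.22 in iCM and -2.23 ± 0.23 in aCM (SE). Fermt3, the kindlin of blood cells, fell by 1.67 ± 0.18 in aCM against nCM (SE), the same direction as Itgb2. Of the plaque genes, 5 fell in iCM against nCM, 2 without iCM replicate 2, iCM replicate 3 or nCM replicate 3, 3 without nCM replicate 2, and 0 with iCM replicate 1 alone, where 7 rose.

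The second list held 30 tested genes of the basement membrane and of other laminin binders. Of these 21 rose and 4 fell in iCM against CSC, 8 rose and 0 fell against nCM, 11 rose and 13 fell against aCM, and 13 rose and 9 fell in aCM against nCM. The shares of all genes called were, as above, 66.0%, 31.4%, 63.1% and 62.7% in these comparisons. The list's median was 3.15 in iCM against CSC, with 0.08 over all genes, and 0.22 in aCM against nCM, with -0.01 over all genes. Without iCM replicate 2 the 8 became 4, without iCM replicate 3 they became 5, and with iCM replicate 1 alone none passed. Nid1, the nidogen that binds the laminin gamma1 chain, averaged 845 ± 27.0 CPM in iCM and 1098 ± 141 CPM in nCM, against 1.37 ± 1.36 CPM in CSC (SD, n = 3 each). Its log2 change in iCM was 9.22 ± 0.55 (SE), and 10.49 without CSC replicate 2. Sgca, a sarcoglycan of the muscle dystroglycan complex, rose by 5.01 ± 0.24 in aCM against nCM (log2 and SE), as Itga7 and Lama2 did. Col18a1, a collagen of vascular and epithelial basement membranes, was lower in aCM, at 84.9 ± 8.79 CPM, than in nCM, at 575 ± 20.5 CPM. Bcam, a receptor for the laminin alpha5 chain, averaged 436 ± 22.4 CPM in aCM and 0.734 ± 0.195 CPM in CSC. Pomt1, an enzyme that adds the O-mannose on which laminin binding by dystroglycan depends, was lower in iCM, at 26.5 ± 1.37 CPM, than in CSC, at 57.1 ± 11.3 CPM.

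The third list held 25 ligands of integrins other than laminins. Of these 16 rose and 1 fell in iCM against CSC, 3 rose and 5 fell against nCM, 11 rose and 6 fell against aCM, and 5 rose and 12 fell in aCM against nCM. The number called, in either direction, was thus 17 of 25 against CSC, where 66.0% of all genes were called, 8 of 25 against nCM, where 31.4% were, and 17 of 25 against aCM, where 63.1% were, all close to the background. In aCM against nCM it was 17 of 25, where 62.7% were. The list's median was 2.28 in iCM against CSC, with 0.08 over all genes, and -0.58 in aCM against nCM, with -0.01 over all genes. With total counts as the only scaling 2 rose and 13 fell in aCM against nCM, and with iCM replicate 1 alone 1 rose and 1 fell in iCM against nCM. Postn (periostin), a ligand of Itgav integrins, averaged 2319 ± 209 CPM in iCM, 24.5 ± 2.56 CPM in aCM, 4417 ± 661 CPM in nCM and 5.89 ± 4.93 CPM in CSC (SD, n = 3 each). Spp1 (osteopontin), which binds Itgav, Itga4 and Itga9 integrins, averaged 1524 ± 335 CPM in iCM, 15.8 ± 4.88 CPM in aCM, 23.7 ± 13.2 CPM in nCM and 8149 ± 1785 CPM in CSC. It was therefore higher in iCM than in nCM, at 6.005 ± 0.43 (log2 and SE), and lower than in CSC. Fn1 (fibronectin), the ligand of the Itga5 receptor, averaged 157 ± 30.7 CPM in aCM and 3924 ± 2221 CPM in CSC, a log2 change of -4.65 ± 0.44 (SE). Tnc (tenascin-C), a ligand of Itga9, fell in aCM, to 9.35 ± 1.73 CPM, against 339 ± 59.7 CPM in nCM, while Itga9 rose. Tnn (tenascin-N) averaged 141 ± 128 CPM in iCM and 3.78 ± 1.47 CPM in nCM, with a log2 change of 5.22 ± 1.02 (SE) that was 4.48 without iCM replicate 2 and -0.42 with iCM replicate 1 alone.

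The clones extended the CSC values beyond 1 clone, with 1 library each and no test. All 38 members were among the 15979 genes of the clone table, whose values are given as plain CPM of the table's totals, and the making of the cCSC1 and cCSC2 values differs from that of the others. By level, 18 members were highest in cCSC2, 7 in cCSC1, 3 in cCSC3 and 10 in clone 4. How all genes of the table split in this way was not counted, so this split is not read as particular to the members. Lama2 stood at 163 CPM in cCSC2, against 1.24 in cCSC1, 0.606 in cCSC3 and 1.35 in clone 4, so 1 clone held this muscle laminin chain at a level the other 3 lacked. Itgb3 had the same pattern, with 25.6 CPM in cCSC2, 1.47 in cCSC1, 0.362 in cCSC3 and 0.331 in clone 4. More than 4-fold above both cCSC1 and cCSC3 in cCSC2 were 8 of 38 members, or 21.1%, where 3.96% of all genes of the table were. These were Itga1, Itga4, Itga8, Itga11, Itgb3, Itgb8, Lama2 and Lama5. In clone 4, Itgb7 and Lamb3 stood more than 4-fold above the other 3 clones, or 5.26% of members, where 0.432% of all genes did. Lamb3 had 23.6 CPM in cCSC1, 19.6 CPM in cCSC2 and 16.4 CPM in cCSC3, against 95.7 CPM in clone 4, so its high level in the CSC group was not seen in those clones. Itga7 had 33.4 CPM in cCSC1, 23.2 CPM in cCSC2 and 27.1 CPM in cCSC3, against 11.7 CPM in clone 4. Itga5 was at 252 CPM in cCSC1, 239.7 CPM in cCSC2 and 199 CPM in cCSC3, against 369.6 CPM in clone 4. The ratio of Itga7 to Itga5 was thus higher in cCSC1, cCSC2 and cCSC3 than in clone 4, the clone of the CSC group. In iCM, with TMM scaling, Itga7 had 32.5 to 51.2 CPM and Itga5 236 to 286 CPM. In nCM, scaled the same way, Itga7 had 19.7 to 27.5 CPM and Itga5 199 to 237 CPM. The threshold of 4-fold was chosen after the values were seen.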

How the data were processed

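RNA of 15 rat libraries had been sequenced after removal of ribosomal RNA, per the labels' protocols. The authors deposited estimated counts per gene for the 12 libraries of 4 groups; the log2 values beside them served only to read the authors' library factors. In the clone table the authors deposited estimated counts for cCSC3 and clone 4 and a signal of the size of counts for cCSC1 and cCSC2. DESeq is named in the submitters' processing notes. The aligner, the genome build and the use of strand are not stated in the labels or files, so overlapping or near-identical genes are uncertain. A line without a gene name held 0 counts and was left out. Estimated counts were rounded to whole numbers.

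All 12 libraries entered 1 edgeR 4.0.16 quasi-likelihood fit (R 4.3.3) with TMM scaling and filterByExpr at a minimum count of 10, and p-values were Benjamini-Hochberg adjusted over 17242 genes at 0.05. The same steps were run on simulated data that had the same spread for every gene and few changed genes. These settings differ from the data, so the run does not measure the error of the fits reported here. Library pairs within a group differed beyond sampling noise, with a lowest median chi-square per gene of 1.73 for iCM replicates 2 and 3, against 0.455 by chance. Total counts were 20.7 to 48.5 M, which limits members near 1 CPM most.

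Members and lists were chosen with earlier results of these data known. Itga7, Itga5, Itga6, Itgb1 and the laminin alpha chains were given by library, the members with the 5 highest and 5 lowest fold changes past the threshold are named in each comparison, and others are named by role. From each other list the 2 highest and 2 lowest were eligible. A member and 1 listed gene are in the counts but are not reported here. Alternatives were RLE factors, total counts, no filter, a minimum of 50, DESeq2 1.42.0, 2-group fits, a replicate block and leaving out each library, plus the authors' factors and iCM replicate 1 alone, chosen after seeing the data. Promoters came from RefSeq, GRCr8.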

Additional observations from a re-analysis of the deposited data

How the results depend on the processing

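No call of a member changed sign under any alternative. Calls held under every alternative for 28 of 28 members in aCM against CSC, 31 of 33 in nCM against CSC, 27 of 31 in iCM against CSC, 25 of 30 in aCM against nCM, 17 of 27 in iCM against aCM and 6 of 18 in iCM against nCM. With iCM replicate 1 as the only iCM library, 4 members were higher and 2 lower in iCM against nCM, against 11 and 7, the genes past the threshold there numbered 1059, against 5412, and 9 members were higher in iCM against aCM, against 14. Leaving out 1 library at a time gave 4 to 8 members lower in iCM against nCM and 3494 to 5901 genes past the threshold there. The lowest value was without iCM replicate 3 for the members and without iCM replicate 2 for the genes, and without iCM replicate 3 the genes numbered 3570. The other counts of members and genes stayed within 1.5 times under every alternative tried; the cause of the moves was not tested.

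Replicate numbers did not pair the libraries: over 18 same-numbered pairs the correlation of deviations from the group means was -0.20 to 0.07, and 0 of 12 libraries correlated best with their own number. With the replicate block 22 members rose and 8 fell in iCM against CSC, 11 and 7 in iCM against nCM, 14 and 13 in iCM against aCM, 16 and 13 in aCM against nCM, 23 and 10 in nCM against CSC and 20 and 8 in aCM against CSC. The calls lost under it were Itgb1 in iCM against CSC (0.38) and Itga6 in aCM against nCM (0.42). Members near 1 CPM, such as Itgb6 and Itga10, are limited by depth, and the spread within CSC covers 1 clone.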
